A study of Homo sapiens with 22 samples.

Results

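The 37 genes of the human mitochondrial genome were followed in 22 RNA-seq libraries of colorectal cancer cell lines. They were chosen by symbol, as the genes whose names begin with MT-, and comprised 13 mRNAs, 2 rRNAs and 22 tRNAs. They were 37 of the 58870 genes in the tables of an siRNA experiment and 37 of the 57820 genes in the tables of an actinomycin D experiment. All 13 mRNAs and both rRNAs passed the filter on low counts in each experiment. Of the 22 tRNAs, 0 passed it in the siRNA experiment and 2 in the actinomycin D experiment.

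Mitochondrial DNA is a small circle that is copied into long transcripts spanning many genes, by a polymerase (POLRMT) distinct from the nuclear ones. Most genes lie in one orientation and are transcribed from the heavy-strand promoter, while MT-ND6 and 8 of the tRNAs lie in the other and are transcribed from the light-strand promoter. The long transcripts are cut apart mainly at the tRNAs, and most of the mRNAs and both rRNAs then receive short A tails, whereas human MT-ND6 mRNA is known to lack a regular tail. The mRNAs encode core subunits of respiratory complexes I, III, IV and V, and the rRNAs form the core of the mitochondrial ribosome.

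The ends of 5 mRNAs, a shared stretch of a pair of mRNAs and a tRNA are printed to show how the annotated ends differ among mRNAs whose levels are described and which genes share bases or adjoin. The values themselves are gene counts, which do not resolve these ends. The sequences were read 5′ to 3′ from the GENCODE 29 transcripts (GRCh38), whose identifiers and versions for all 37 genes were those of both sets of tables. The actinomycin D tables were made on hg19, whose mitochondrial sequence and coordinates were not read here and may differ. In the mRNA ends, capitals mark the last codon, or the 1 or 2 bases after the last whole codon where the annotated gene ends inside a stop codon that the A tail completes.
MT-ND6 (chrM:14149-14172, − strand): attgagattgctcgggggaatAGG
MT-ND1 (chrM:4239-4262, + strand): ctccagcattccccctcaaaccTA
MT-ND2 (chrM:5488-5511, + strand): ccccttttatactaataatcttaT
MT-CO3 (chrM:9967-9990, + strand): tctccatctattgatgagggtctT
MT-CO1 (chrM:7422-7445, + strand): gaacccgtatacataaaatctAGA
Of the 13 annotated mRNAs, 6 had a length that was not a multiple of 3 and 7 had one that was. MT-ATP8 and MT-ATP6 share 46 bases, in capitals in the next line, and MT-ND4L and MT-ND4 share 7, so the separate counts of each such pair are uncertain.
MT-ATP8/MT-ATP6 (chrM:8515-8584, + strand): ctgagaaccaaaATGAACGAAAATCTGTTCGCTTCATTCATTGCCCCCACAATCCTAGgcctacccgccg
The tRNA MT-TF, which carries phenylalanine and lies directly upstream of the 12S rRNA gene MT-RNR1, is printed with the outer 7 bases of each arm of its acceptor stem in capitals.
MT-TF (chrM:577-647, + strand): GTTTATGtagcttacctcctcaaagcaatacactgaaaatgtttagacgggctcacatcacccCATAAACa

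The libraries come from a study of Staufen1 (STAU1), an RNA-binding protein, and of FOXA1 mRNA. In the siRNA experiment LS180 cells, a mucin-producing colorectal adenocarcinoma line, received an siRNA against STAU1 (siSTAU1, n = 2) or a control siRNA (siCTRL, n = 2) over a pair of 72 h periods, and libraries were made from polyA RNA. In the actinomycin D experiment HCT116 cells, a poorly differentiated colorectal carcinoma line, and LS180 cells were exposed to 5 µg/ml actinomycin D, a DNA-binding inhibitor of transcription, for 0, 2 or 4 h (n = 3 libraries per line and time). Those libraries were made from total RNA, no group carried an siRNA, and the 0 h libraries served as the baseline of their line. Whether replicates came from separate cultures is not stated in the labels; the spread behind each p-value is that of these libraries and may be technical.

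Total counts were 23730047 to 26658699 per siRNA library and 47842278 to 61417810 per actinomycin D library, and short noncoding RNAs took 16.2 to 25.5% of counts in the actinomycin D libraries. Levels are given as CPM, counts scaled to a common library size by the trimmed mean of M values (TMM). STAU1 itself had 9.70 and 9.17 CPM in the siSTAU1 libraries, against 144 and 141 CPM in the siCTRL libraries. The epithelial genes EPCAM, KRT8 and KRT18 averaged 301 to 5180 CPM over the 8 groups, but other markers of the intestinal epithelium were low in some: at 0 h KRT20 averaged 1.29 CPM in HCT116 and 0.294 CPM in LS180, and VIL1 0.05 CPM in HCT116 and 182 CPM in LS180. CDX2 averaged 14.1, 8.85 and 4.72 CPM at 0, 2 and 4 h in HCT116 and 53.5, 19.4 and 5.70 CPM in LS180. Of the fibroblast, immune and endothelial markers listed, the highest mean in any group was that of CD14, a monocyte marker, with 4.00 CPM after siSTAU1 and 2.81 CPM after siCTRL, and CD3E of T cells had no count. The goblet cell genes TFF3 and AGR2 averaged 0.00499 and 0.0499 CPM in HCT116 at 0 h, against 59.8 and 946 CPM in LS180 at 0 h. The other goblet cell genes listed, MUC2 and SPDEF, were low in LS180 at 0 h, at 3.0 and 3.97 CPM. In HCT116 at 0 h MUC2 had no count and SPDEF averaged 0.00998 CPM. In the polyA libraries of LS180 after siCTRL, MUC2 and SPDEF averaged 114 and 25.5 CPM. The 3 HCT116 libraries numbered 1 deviated together from their groups, and the LS180 4 h libraries numbered 2 and 3 stood apart from number 1, so results that change without them are given both ways. Without numbers 2 and 3 the LS180 4 h group holds a single library, which is assumed to vary like the others. Each value is a share of the RNA sequenced, so a difference in RNA per cell and a difference in the cells sampled cannot be told apart, and after actinomycin D a rise is relative to the transcripts that remained.

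Mitochondrial transcripts were a small part of both experiments. In polyA RNA the 13 mRNAs took 0.820 ± 0.0862% of counts after siSTAU1 and 0.869 ± 0.0608% after siCTRL (SD, n = 2 each). The 2 rRNAs took 0.825 ± 0.0490% of counts after siSTAU1 and 0.471 ± 0.00968% after siCTRL (SD, n = 2 each). The mRNA shares overlapped between the siRNA groups, and the rRNA shares did not. In total RNA the mRNAs took 0.0844 ± 0.00978%, 0.126 ± 0.00900% and 0.126 ± 0.0270% of counts in HCT116 at 0, 2 and 4 h, and 0.0510 ± 0.00557%, 0.0683 ± 0.00287% and 0.0765 ± 0.00957% in LS180 (SD, n = 3 each). The rRNAs took 0.0197 ± 0.00285%, 0.0360 ± 0.00135% and 0.0364 ± 0.00930% in HCT116 at the same times, and 0.0286 ± 0.000919%, 0.0474 ± 0.00718% and 0.0576 ± 0.00685% in LS180 (SD, n = 3 each). Whether and how ribosomal RNA was removed before sequencing is not stated in the labels, so these levels are not compared between the experiments.

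Per unit of length, the order of the transcripts can be read from the authors' TPM values. After siSTAU1 the highest were MT-RNR2 at 6420 ± 608 TPM, MT-ND3 at 4970 ± 279 TPM, MT-ATP8 at 3500 ± 526 TPM and MT-CO2 at 3490 ± 880 TPM. After siCTRL these were MT-ATP8 at 4560 ± 212 TPM, MT-CO2 at 4510 ± 517 TPM, MT-ND3 at 4290 ± 134 TPM and MT-RNR2 at 3940 ± 77.0 TPM (SD, n = 2 each). Neighbours in these lists overlapped within their spread, except MT-RNR2 over MT-ND3 and MT-ND3 over MT-ATP8 after siSTAU1, and MT-ND3 over MT-RNR2 after siCTRL. The TPM of MT-ATP8 rests on an effective length, the part of a gene where a fragment can start, of only 40.9 to 48.9 bases. MT-ND6 was lowest, with 3.14 ± 1.43 TPM after siSTAU1 and 5.55 ± 0.658 TPM after siCTRL. In total RNA at 0 h the order was led by MT-ND3 and MT-CO3 in HCT116, at 168 ± 10.4 and 143 ± 34.2 TPM. In LS180 it was led by MT-ND3, MT-CO3 and MT-RNR2, at 86.1 ± 6.23, 81.6 ± 13.3 and 78.7 ± 6.77 TPM. These neighbours did not differ beyond their spread in either line. MT-ND6 stood at 12.6 ± 3.01 TPM in HCT116 and 3.15 ± 0.530 TPM in LS180 at 0 h (SD, n = 3 each), among the middle and low transcripts there.

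Knockdown of STAU1 was followed by a rise of both mitochondrial rRNAs in the polyA libraries. MT-RNR2, the 16S rRNA of the large mitochondrial ribosomal subunit, had 7460 and 6830 CPM in the siSTAU1 libraries, against 4060 and 4110 CPM in the siCTRL libraries. MT-RNR1, the 12S rRNA of the small subunit, had 1210 and 1220 CPM in the siSTAU1 libraries, against 642 and 496 CPM in the siCTRL libraries. Every siSTAU1 library lay above every siCTRL library for both rRNAs. In edgeR's quasi-likelihood test with Benjamini-Hochberg adjustment over 14073 genes, the log2 fold change was 0.81 for MT-RNR2 (SE 0.0557, adjusted p = 7.87e-07) and 1.09 for MT-RNR1 (SE 0.0848, adjusted p = 1.89e-06), which are 1.75-fold and 2.13-fold. Over the 12 alternatives the log2 fold change ranged from 0.61 to 0.87 for MT-RNR2 and from 0.89 to 1.29 for MT-RNR1, and the call held in all of them. Set against the mRNAs of the same libraries, there were 0.975 and 1.04 rRNA counts per mRNA count after siSTAU1, against 0.579 and 0.509 after siCTRL. Marker genes of the cells moved with the knockdown too. All 4 goblet cell genes were called higher after siSTAU1, among them AGR2 at 3050 CPM after siSTAU1 and 1830 CPM after siCTRL and SPDEF at 46.8 CPM after siSTAU1 and 25.5 CPM after siCTRL. Of 7 epithelial genes 3 were called higher and 3 lower, among the lower CDH1 at 244 CPM after siSTAU1 and 454 CPM after siCTRL. Their part in the rRNA result was not tested. Since polyA RNA was sequenced, the abundance of the rRNAs and the share of them that carries a tail cannot be told apart. No nuclear transcript in GENCODE 29 matched MT-RNR1, the nearest to MT-RNR2 (MTRNR2L1, on chromosome 17) was 88.5% identical to it, and no nuclear MT-RNR2-like gene had more than 12.3 counts in all siRNA libraries together.

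**Figure D1:**
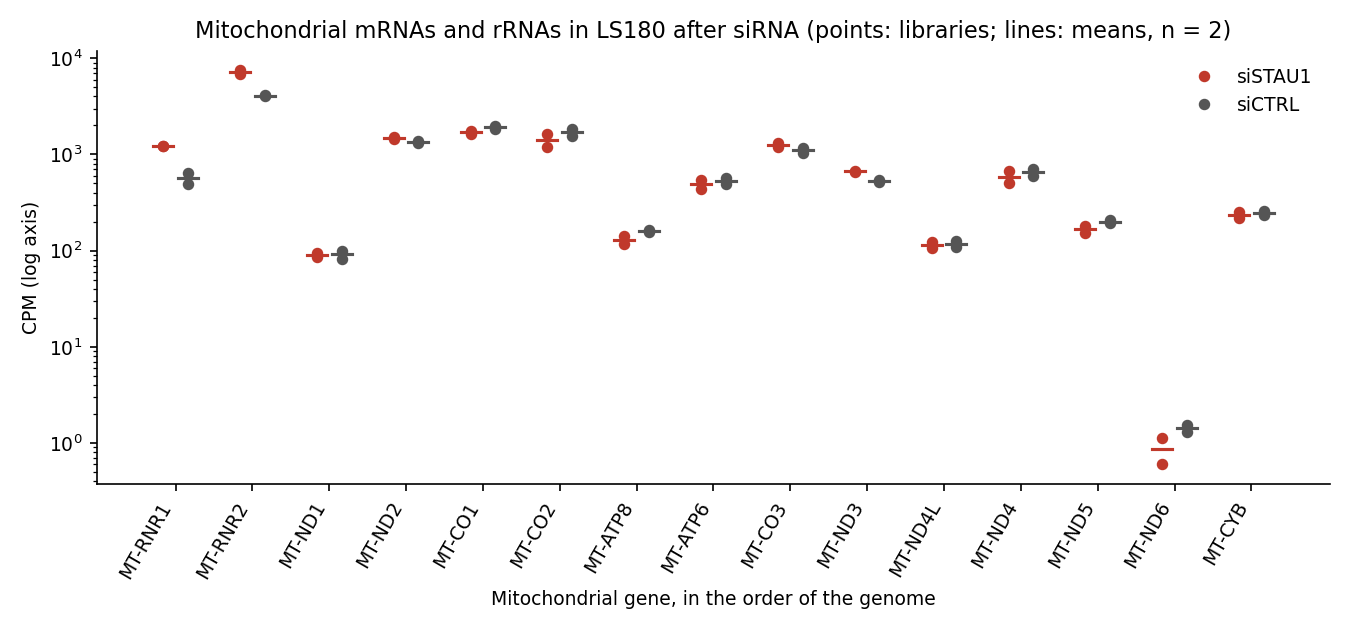
CPM (log axis) of the 13 mitochondrial mRNAs and 2 rRNAs in LS180 cells after siSTAU1 (red) and siCTRL (grey), in the order of the genes on the mitochondrial genome; points are libraries and short lines are means of n = 2. MT-RNR1 and MT-RNR2 were higher in both siSTAU1 libraries, whereas the mRNAs differed less between the groups. MT-ND6 lay between 0.603 and 1.55 CPM.

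The mRNAs showed small differences in both directions. After siSTAU1, 3 of the 13 were higher and 3 lower at an adjusted p under 0.05 (edgeR), where 23.0% of all 14073 genes were higher and 23.0% lower, so their share of calls was near the background. Their median log2 fold change was -0.12, against 0.00 over all genes. The split depended on scaling: it was 1 higher and 3 lower with total library sizes and with effective lengths as an offset, and 0 higher and 8 lower when libraries were scaled to ribosomal protein genes, a scaling under which the median of all genes moved to -0.20 and their split from 3242 higher and 3240 lower to 895 higher and 5550 lower.

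Complex I, the NADH dehydrogenase, takes 7 of the 13 mRNAs. MT-ND3 had 677 and 654 CPM after siSTAU1, against 521 and 541 CPM after siCTRL. The groups did not overlap, and the log2 fold change was 0.33 (SE 0.0376, edgeR adjusted p = 3.37e-05), the largest rise among the mRNAs, which kept its call without any single library but not with scaling to ribosomal protein genes (0.13, adjusted p = 0.0707). MT-ND2 had 1510 and 1430 CPM after siSTAU1, against 1310 and 1390 CPM after siCTRL, a log2 fold change of 0.12 (SE 0.0453, edgeR adjusted p = 0.0424) that became -0.07 with scaling to ribosomal protein genes. That call was lost without siSTAU1 library 1, siCTRL library 1 or siCTRL library 2 (adjusted p = 0.219, 0.410 and 0.0985), and it held in 5 of 12 alternatives in all. MT-ND2 shares 98.4% of its sequence with the nuclear pseudogene MTND2P28, which received 45.9 and 40.9 CPM after siSTAU1 and 36.0 and 44.9 CPM after siCTRL, so their split is uncertain. MT-ND5 had 181 and 152 CPM after siSTAU1, against 192 and 208 CPM after siCTRL, a log2 fold change of -0.27 (SE 0.0662, edgeR adjusted p = 0.00626). Its groups did not overlap, and the call was lost without siCTRL library 2 (adjusted p = 0.144) and with DESeq2 (adjusted p = 0.129). The values of MT-ND1 (-0.01), MT-ND4 (-0.14) and MT-ND4L (-0.04) did not pass the test. MT-ND6 gave 28 and 15 counts after siSTAU1, against 42 and 31 after siCTRL, a log2 fold change of -0.72 (SE 0.361, adjusted p = 0.125) that did not pass the test, although the groups did not overlap.

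In complex IV, the cytochrome c oxidase, the 3 core subunits did not move together. MT-CO3 had 1310 and 1190 CPM after siSTAU1, against 1030 and 1170 CPM after siCTRL, a log2 fold change of 0.18 (SE 0.0594, edgeR adjusted p = 0.0259) that became -0.02 with scaling to ribosomal protein genes. MT-CO1 had 1760 and 1640 CPM after siSTAU1, against 1830 and 1990 CPM after siCTRL, a log2 fold change of -0.17 (SE 0.0518, edgeR adjusted p = 0.0209). Neither pair of groups overlapped, but the MT-CO3 call was lost without siSTAU1 library 1 or siCTRL library 1 (adjusted p = 0.119 and 0.383), and the MT-CO1 call without siSTAU1 library 2 or siCTRL library 2 (adjusted p = 0.138 and 0.293). The MT-CO3 call was also lost with DESeq2 (0.212), no filter (0.0944), the length offset (0.0951) and total library sizes (0.0692), and the MT-CO1 call with DESeq2 (0.102) and no filter (0.0506), so that they held in 5 and 8 of 12 alternatives. Within a library there were 0.740 and 0.729 MT-CO3 counts per MT-CO1 count after siSTAU1, against 0.565 and 0.590 after siCTRL, a ratio that scaling does not affect. MT-CO2 had 1630 and 1190 CPM after siSTAU1 and 1570 and 1820 CPM after siCTRL, and its difference of -0.27 (adjusted p = 0.0706) passed the test without siSTAU1 library 1 (-0.52, adjusted p = 1.18e-06). MT-CYB of complex III, with 252 and 218 CPM after siSTAU1 and 233 and 259 CPM after siCTRL, did not pass the test (-0.07, adjusted p = 0.420).

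The 2 subunits of complex V, the ATP synthase, are encoded by the overlapping genes shown above. MT-ATP8 had 141 and 118 CPM after siSTAU1, against 155 and 164 CPM after siCTRL, a log2 fold change of -0.30 (SE 0.0635, edgeR adjusted p = 0.00240), a call lost without siCTRL library 2 (adjusted p = 0.0787) and with DESeq2 (adjusted p = 0.0608). MT-ATP6 had 544 and 440 CPM after siSTAU1 and 496 and 570 CPM after siCTRL, and its difference of -0.12 did not pass the test (adjusted p = 0.282). Without siSTAU1 library 1, MT-ATP6 (-0.28), MT-ND4 (-0.36), MT-CYB (-0.18) and MT-ND4L (-0.14) were called lower as well (adjusted p = 0.000241, 6.45e-05, 0.00324 and 0.0490). MT-ATP6 is 98.5% identical to the nuclear pseudogene MTATP6P1, which received 68.7 and 56.5 CPM after siSTAU1 and 55.6 and 67.2 CPM after siCTRL. MT-CO1, MT-CO2 and MT-ATP8 are 98.6%, 98.0% and 97.6% identical to the pseudogenes MTCO1P12, MTCO2P12 and MTATP8P1. Those received 488, 4.25 and 0 counts in all siRNA libraries together, so the splits of these pairs are uncertain as well. Of the 394 nuclear mitochondrial pseudogenes in these tables, 384 had no count, and the 3 that were tested were not called.

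Nuclear genes that serve the mitochondrial genome were read in the same fit, from lists made from general knowledge. Of 12 genes of mitochondrial transcription, 1 was higher and 5 lower after siSTAU1 (median log2 fold change -0.16). TEFM, the transcription elongation factor, averaged 10.9 CPM after siSTAU1 and 14.2 CPM after siCTRL (-0.38, adjusted p = 0.00767). TWNK, a helicase of mitochondrial DNA replication and not of transcription, averaged 51.3 CPM after siSTAU1 and 76.4 CPM after siCTRL (-0.58, adjusted p = 4.38e-06). Of 41 genes of RNA processing and stability, 5 were higher and 20 lower (median -0.15), against 23.0% of all genes in each direction. LRPPRC, which stabilises mitochondrial mRNAs, averaged 153 CPM after siSTAU1 and 221 CPM after siCTRL (-0.53, adjusted p = 3.79e-07), and SUPV3L1, the helicase of the mitochondrial RNA degradosome, averaged 50.6 CPM after siSTAU1 and 71.1 CPM after siCTRL (-0.49, adjusted p = 1.55e-05). FASTK, the founding member of a family of mitochondrial RNA-binding proteins, was higher at 71.7 CPM after siSTAU1 and 52.0 CPM after siCTRL (0.46, adjusted p = 5.85e-05). Of 23 genes of mitochondrial DNA maintenance, 4 were higher and 10 lower. OPA1, a fusion protein of the inner membrane, was among the lower ones (-0.38, adjusted p = 1.90e-05). Of 13 biogenesis regulators, 1 was higher and 8 lower, among them MYC (-0.46, adjusted p = 1.05e-06) and the coactivator PPRC1 (-0.33, adjusted p = 0.000600).

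The nuclear subunits of the complexes were split. Of the nuclear genes of complex I, 14 of 37 were higher and 5 lower (median 0.11), and the counts were 5 and 1 of 9 for complex III, 4 and 1 of 12 for complex IV and 5 and 1 of 15 for complex V. Of all 14073 genes, 23.0% were higher and 23.0% lower. With scaling to ribosomal protein genes these medians turned to -0.10, -0.07, -0.13 and -0.11, while the median of all genes moved from 0.00 to -0.20. The small subunit NDUFB2 averaged 104 CPM after siSTAU1 and 72.5 CPM after siCTRL (0.52, adjusted p = 2.58e-05), while the iron-sulphur subunit NDUFS1 averaged 118 CPM after siSTAU1 and 163 CPM after siCTRL (-0.47, adjusted p = 8.04e-06). Of 4 genes of complex II, which has no mitochondrially encoded subunit, 2 were higher and 2 lower. Of 78 mitochondrial ribosomal protein genes, whose products assemble with the 2 rRNAs, 20 were higher and 19 lower (median 0.04), near the share of all genes. MRPS6 (0.66, adjusted p = 5.89e-07) was the most firmly called of those that rose, and MRPS2 (-0.47, adjusted p = 2.58e-06) of those that fell.

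Actinomycin D separated MT-ND6 from every other mitochondrial mRNA in both lines. In HCT116, MT-ND6 had 7.63, 12.9 and 10.3 CPM at 0 h, 1.26, 1.62 and 1.46 CPM at 2 h and 0.463, 0.494 and 0.569 CPM at 4 h. LS180 had 2.88, 2.39 and 2.71 CPM at 0 h, 0.612, 0.318 and 0.375 CPM at 2 h and 0.133, 0.242 and 0.218 CPM at 4 h. No library of a later time overlapped one of an earlier time in either line. In edgeR's test over 17256 genes its log2 fold change in HCT116 was -2.83 at 2 h (SE 0.192, adjusted p = 1.41e-09) and -4.33 at 4 h (SE 0.220, adjusted p = 1.03e-11). In LS180 its log2 fold change was -2.60 at 2 h (SE 0.236, adjusted p = 3.89e-08) and -3.75 at 4 h (SE 0.280, adjusted p = 1.22e-09). The 4 h changes are 20.2-fold and 13.4-fold. Over all alternatives the 4 h fall ranged from -4.74 to -4.13 in HCT116 and from -4.30 to -3.39 in LS180, and it was called in each of them.

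Read within the mitochondrial mRNAs alone, which no scaling affects, MT-ND6 made up 8.83, 16.8 and 14.5 of 1000 mRNA counts in HCT116 at 0 h, 0.974, 1.39 and 1.19 at 2 h and 0.301, 0.438 and 0.506 at 4 h. In LS180 it made up 5.25, 5.18 and 5.65 of 1000 at 0 h, 0.894, 0.470 and 0.534 at 2 h and 0.157, 0.270 and 0.266 at 4 h. The extent of the fall did not differ between the lines by the test of the difference (-0.23 at 2 h, adjusted p = 0.927, and -0.59 with SE 0.422 at 4 h, adjusted p = 0.476), which does not show that it was the same. MT-ND6 is the sole mRNA annotated on the − strand. The strand setting of the authors' counting is not given in the sources used here, so reads from the opposite strand of the same stretch cannot be told apart from MT-ND6 reads. Its nearest nuclear copy, MTND6P4, is 95% identical and received 31.3 counts in all 18 libraries together, against 2627 for MT-ND6.

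**Figure D2:**
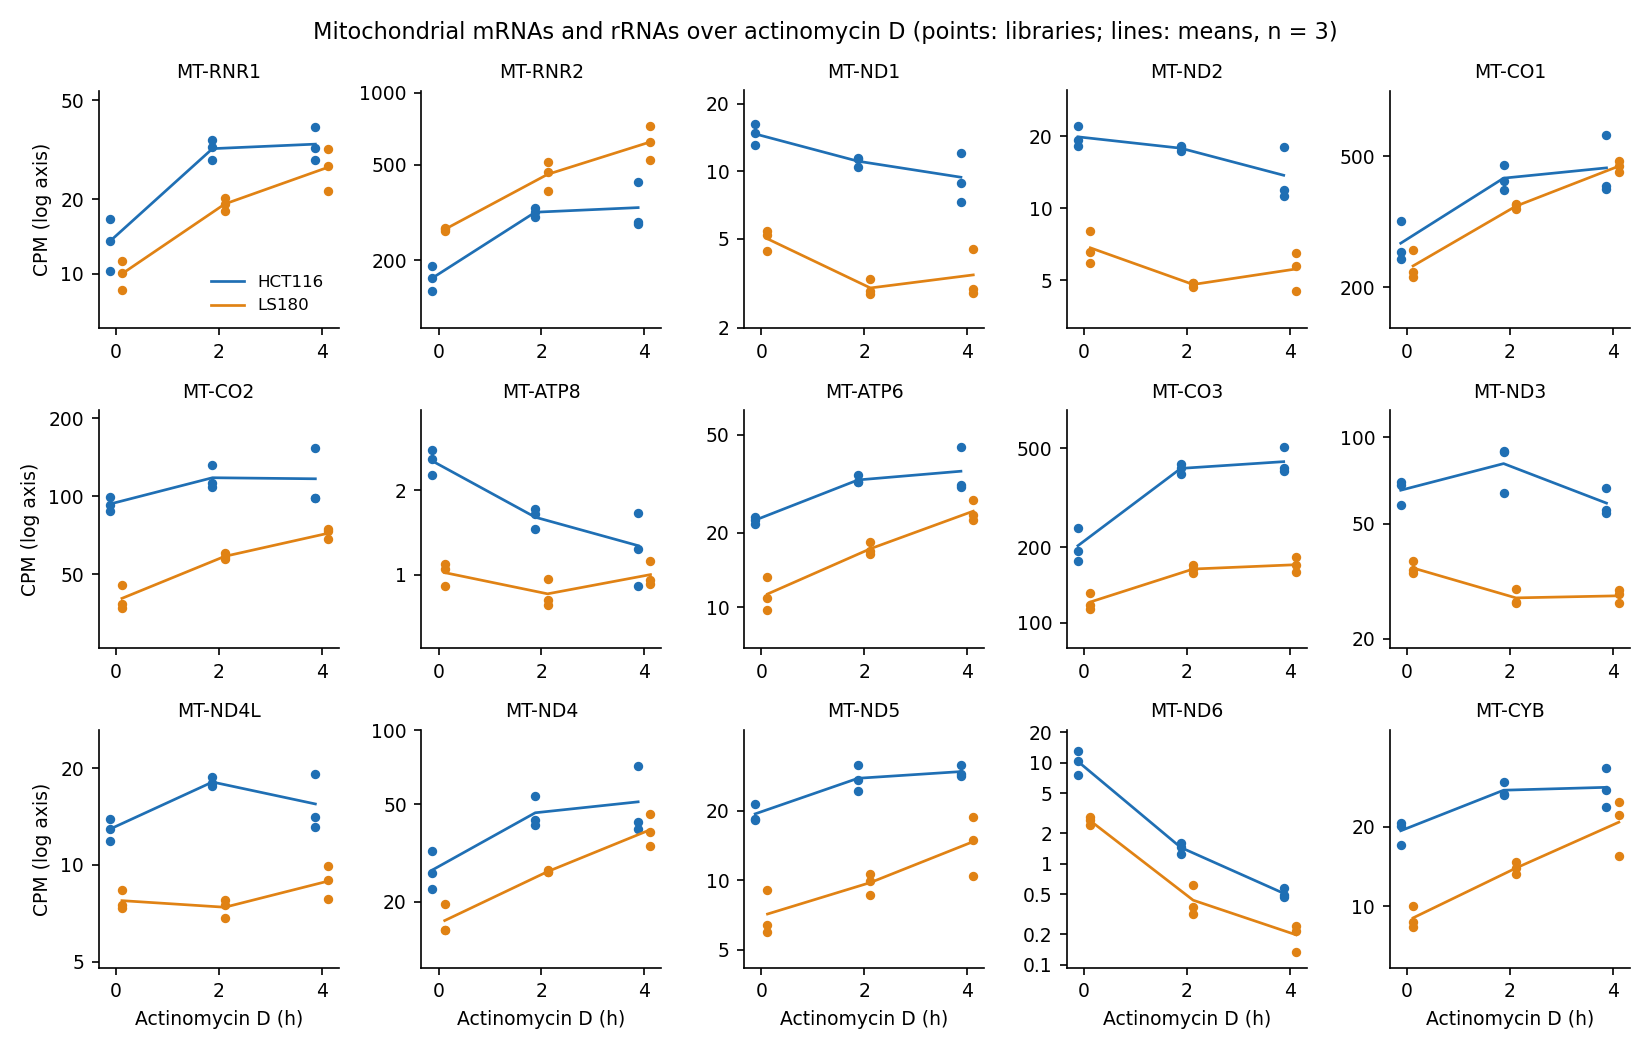
CPM (log axes) of each mitochondrial rRNA and mRNA at 0, 2 and 4 h of actinomycin D in HCT116 (blue) and LS180 (orange); points are libraries and lines join the means of n = 3. MT-ND6 fell at each step in both lines, the mean of MT-ND1 was lower at 4 h than at 0 h, and both rRNAs, MT-CO1, MT-ATP6, MT-ND4, MT-ND5 and MT-CYB were higher.

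The other 12 mRNAs changed less and in both directions. In HCT116 8 of 13 mRNAs were higher and 2 lower at 2 h, where 13.8% of 17256 genes were higher and 17.1% lower, and 7 were higher and 4 lower at 4 h, where 26.2% were higher and 23.7% lower and 49.9% changed in either direction. In LS180 6 were higher and 4 lower at 2 h, against 13.5% and 23.9% of all genes, and 7 were higher and 3 lower at 4 h, against 26.6% and 31.1% of all genes and 57.7% in either direction. The 2 h and 4 h comparisons of a line share their 0 h libraries. When libraries were scaled to ribosomal protein genes, which themselves rose under TMM (78 of 80 at 4 h in each line), the median of all genes moved to -0.20 and -0.34 at 2 and 4 h in HCT116 and to -0.25 and -0.54 in LS180. The mRNAs then split 3 higher and 3 lower at 2 h and 3 and 5 at 4 h in HCT116, and 2 and 4 at 2 h and 5 and 6 at 4 h in LS180. With RLE size factors they split 7 and 2 at 2 h and 8 and 1 at 4 h in LS180. Total library sizes moved the median of all genes to -0.20 and RLE size factors moved it to 0.12 in LS180 at 4 h. The splits of all genes moved as well, for example at 4 h from 4524 higher and 4085 lower to 111 and 7339 in HCT116, and from 4591 and 5365 to 123 and 10735 in LS180, with scaling to ribosomal protein genes.

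Among the complex I mRNAs, MT-ND4 and MT-ND5 were called higher in both lines at 4 h whereas MT-ND1 was called lower. MT-ND4 had 32.3, 26.2 and 22.5 CPM in HCT116 at 0 h and 71.6, 42.5 and 39.5 CPM at 4 h, and it rose by a log2 fold change of 0.92 (SE 0.185, edgeR adjusted p = 0.000405). In LS180 it had 19.6, 15.4 and 15.4 CPM at 0 h and 33.8, 45.8 and 38.7 CPM at 4 h, and rose by 1.23 (SE 0.191, adjusted p = 2.00e-05). Its groups did not overlap in either line. MT-ND5 rose at 4 h by 0.61 (SE 0.164, adjusted p = 0.00427) in HCT116 and by 1.04 (SE 0.178, adjusted p = 5.77e-05) in LS180, and the HCT116 call was lost with scaling to ribosomal protein genes (0.21, adjusted p = 0.322). MT-ND1 had 13.1, 16.2 and 14.8 CPM in HCT116 at 0 h and 12.1, 8.86 and 7.28 CPM at 4 h, a log2 fold change of -0.64 (SE 0.155, edgeR adjusted p = 0.00202). In LS180 it had 5.43, 4.39 and 5.17 CPM at 0 h and 2.99, 4.48 and 2.87 CPM at 4 h, a log2 fold change of -0.54 (SE 0.179, adjusted p = 0.0157). The HCT116 groups did not overlap and the LS180 groups did. The LS180 call was lost without 0 h library 1, 4 h library 1 or 4 h library 3 (adjusted p = 0.0589, 0.188 and 0.0769) and with RLE size factors or the 1 CPM filter (adjusted p = 0.0554 and 0.0570).

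MT-ND2 fell in HCT116 at 4 h, with a value of -0.53 (SE 0.146, adjusted p = 0.00548), and its value of -0.30 in LS180 did not pass the test there (adjusted p = 0.132), although the 2 h value of -0.51 did (adjusted p = 0.0199). The LS180 4 h value was called lower with total library sizes (-0.51, adjusted p = 0.0157) and with scaling to ribosomal protein genes (-0.86, adjusted p = 0.000196). The LS180 2 h call was lost without 0 h library 1 or 2 h library 2 (adjusted p = 0.112 and 0.12) and with RLE size factors (adjusted p = 0.0531). MT-ND3 fell in LS180, with -0.34 at 2 h (SE 0.111, adjusted p = 0.0205) and -0.32 at 4 h (SE 0.111, adjusted p = 0.0190). The 2 h call was lost without 0 h library 3, 2 h library 1 or 2 h library 2 (adjusted p = 0.0770, 0.0695 and 0.260), and the 4 h one without 0 h library 3, 4 h library 1 or 4 h library 3 (adjusted p = 0.0708, 0.138 and 0.0743) or the LS180 4 h libraries numbered 2 and 3 (-0.13, adjusted p = 0.582). Both were lost with RLE size factors (adjusted p = 0.107 at 2 h and 0.148 at 4 h), DESeq2 (0.102 and 0.149) and the 1 CPM filter (0.0919 and 0.161). In HCT116 MT-ND3 was called higher at 2 h (0.31, adjusted p = 0.0376), with groups that overlapped, and not at 4 h (-0.15, adjusted p = 0.283). The HCT116 2 h call was lost without 0 h library 1, 0 h library 3, 2 h library 2 or 2 h library 3 (adjusted p = 0.153, 0.0537, 0.228 and 0.244) and held in 8 of 16 alternatives, and without the HCT116 libraries numbered 1 the 4 h value became -0.32 and passed (adjusted p = 0.000783), as it did with scaling to ribosomal protein genes (-0.55, adjusted p = 0.00842). MT-ND4L was called higher in HCT116 at 2 h (0.49, adjusted p = 0.00356), and in no other of these comparisons; its 4 h values were 0.27 in HCT116 and 0.20 in LS180. Those values were called higher with RLE size factors and with DESeq2 (adjusted p = 0.0282 and 0.0242 in HCT116 and 0.0228 and 0.0171 in LS180), and in 5 of 16 alternatives in HCT116. The 4 h value under scaling to ribosomal protein genes was -0.13 in HCT116, not called, and -0.36 in LS180, called lower (adjusted p = 0.0256), and the 2 h call in HCT116 was lost (0.26, adjusted p = 0.158).

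In complex IV, MT-CO1 was called higher at 2 h and at 4 h in both lines. MT-CO1 had 318, 255 and 243 CPM in HCT116 at 0 h, 471, 396 and 420 CPM at 2 h and 580, 406 and 397 CPM at 4 h. LS180 libraries had 259, 214 and 223 CPM at 0 h, 357, 345 and 356 CPM at 2 h and 466, 485 and 449 CPM at 4 h. The 4 h libraries lay above the 0 h libraries in both lines, by 0.76 on the log2 scale in HCT116 (SE 0.124, edgeR adjusted p = 4.98e-05) and by 1.01 in LS180 (SE 0.124, adjusted p = 1.26e-06). MT-CO3 had 240, 194 and 176 CPM in HCT116 at 0 h, 433, 393 and 418 CPM at 2 h and 506, 403 and 415 CPM at 4 h. In LS180 the values were 132, 113 and 118 CPM at 0 h, 158, 164 and 170 CPM at 2 h and 183, 170 and 159 CPM at 4 h. It rose at 4 h by 1.12 in HCT116 (SE 0.103, adjusted p = 4.24e-08) and by 0.50 in LS180 (SE 0.102, adjusted p = 0.000374), where scaling to ribosomal protein genes turned the value to -0.04 and total library sizes ended the call (0.30, adjusted p = 0.0699). MT-CO2 rose at 4 h by 0.83 in LS180 (SE 0.133, adjusted p = 2.57e-05), a call lost with scaling to ribosomal protein genes (0.29, adjusted p = 0.106). In HCT116 its 4 h groups overlapped and the call (0.33, adjusted p = 0.0433) was lost without 4 h library 1 (0.06, adjusted p = 0.634), without 0 h library 2 or 3 (adjusted p = 0.0936 and 0.131) and without the libraries numbered 1 (0.13, adjusted p = 0.187), turned to -0.07 with scaling to ribosomal protein genes, and held in 7 of 16 alternatives.

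MT-CYB, the mitochondrial subunit of complex III, rose at 4 h by 0.55 in HCT116 (SE 0.139, adjusted p = 0.00285) and by 1.2 in LS180 (SE 0.147, adjusted p = 1.13e-06), and the HCT116 call was lost with scaling to ribosomal protein genes (0.15, adjusted p = 0.333). Its libraries had 20.7, 20.1 and 17.1 CPM in HCT116 at 0 h and 33.4, 27.5 and 23.7 CPM at 4 h. The LS180 libraries averaged 9.02 ± 0.887 CPM at 0 h (SD, n = 3) and had 15.5, 24.8 and 22.1 CPM at 4 h, and the groups did not overlap in either line. In complex V, MT-ATP6 rose at 4 h by 0.66 in HCT116 (SE 0.122, adjusted p = 0.000182) and by 1.11 in LS180 (SE 0.128, adjusted p = 5.20e-07), and its HCT116 call was lost with that scaling too (0.26, adjusted p = 0.169). The overlapping MT-ATP8 went the other way in HCT116, with 2.26, 2.78 and 2.58 CPM at 0 h, 1.72, 1.45 and 1.64 CPM at 2 h and 1.66, 0.910 and 1.24 CPM at 4 h. It fell there, with -0.66 at 2 h (SE 0.170, adjusted p = 0.00685) and -0.98 at 4 h (SE 0.174, adjusted p = 0.000118), and neither treated group overlapped the 0 h group. In LS180 MT-ATP8 did not pass the test at 2 h (-0.25, adjusted p = 0.354) or 4 h (-0.02, adjusted p = 0.958), and its 4 h sign turned under several settings. It was the least counted mRNA in total RNA, with 1391 counts in the 18 libraries.

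**Figure D3:**
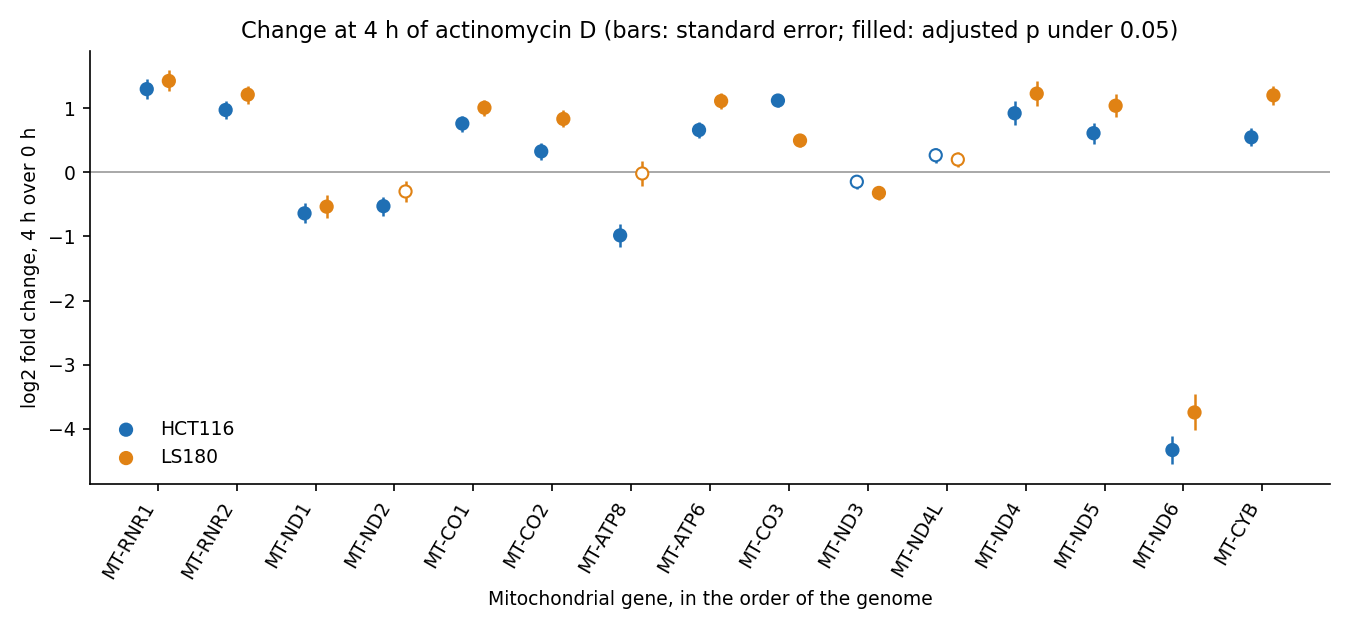
log2 fold change at 4 h over 0 h of actinomycin D for each mitochondrial gene in HCT116 (blue) and LS180 (orange), in genome order; bars are standard errors and filled points had an edgeR adjusted p under 0.05. MT-ND6 stands at -4.33 in HCT116 and -3.75 in LS180, and every other mRNA and rRNA lies between -0.98 and 1.43.

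Both rRNAs rose with actinomycin D in both lines. MT-RNR2 had 189, 169 and 149 CPM in HCT116 at 0 h, 303, 319 and 331 CPM at 2 h and 423, 290 and 283 CPM at 4 h. The LS180 libraries had 273, 270 and 265 CPM at 0 h, 388, 466 and 516 CPM at 2 h and 525, 725 and 620 CPM at 4 h. Neither line's 2 h or 4 h libraries overlapped its 0 h libraries. MT-RNR2 rose at 4 h by 0.97 in HCT116 (SE 0.141, edgeR adjusted p = 1.42e-05) and by 1.21 in LS180 (SE 0.141, adjusted p = 6.12e-07). MT-RNR1 had 16.6, 13.6 and 10.3 CPM in HCT116 at 0 h and 39.1, 32.2 and 28.7 CPM at 4 h, a rise of 1.3 (SE 0.159, adjusted p = 1.95e-06). In LS180 it had 11.3, 10.1 and 8.62 CPM at 0 h and 21.5, 32.0 and 27.1 CPM at 4 h, a rise of 1.43 (SE 0.164, adjusted p = 5.04e-07). The rises of both rRNAs at 2 h and 4 h were called in each line under every alternative, with 4 h values from 0.58 to 1.69. No alternative covered rRNA removal before sequencing, on which the labels are silent. A change in rRNA and a change in the extent of any such removal thus cannot be told apart. There were 0.238, 0.237 and 0.224 rRNA counts per mRNA count in HCT116 at 0 h and 0.300, 0.285 and 0.278 at 4 h, and 0.518, 0.607 and 0.570 in LS180 at 0 h and 0.641, 0.844 and 0.790 at 4 h.

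The tRNAs were barely seen. All 22 have an effective length of 0 in these tables, so their TPM is 0 throughout, and only counts can be read. In the siRNA libraries 18 had no count, which allows at most 0.0297 CPM for each over the 4 libraries together, and the rest summed to 11 counts: 7 for MT-TM (methionine), 2 for MT-TV (valine) and 1 each for MT-TA (alanine) and MT-TS1 (serine). In the actinomycin D libraries 10 had no count, which allows at most 0.00302 CPM over the 18 libraries, and the other 12 summed to 578 counts. MT-TF led with 242 counts, followed by MT-TV with 106, MT-TM with 100, MT-TE (glutamate) with 71 and MT-TL1 (leucine) with 18. These limits and the ratios of tRNA counts cover counting error only, since reads copied in amplification are not independent molecules.

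MT-TF and MT-TV, which flank MT-RNR1, were the 2 tRNAs that passed the filter on low counts. MT-TF had 0, 2 and 0 counts in HCT116 at 0 h, 13, 20 and 19 at 2 h and 40, 24 and 13 at 4 h. LS180 had 1, 1 and 1 counts at 0 h, 22, 3 and 4 at 2 h and 13, 33 and 33 at 4 h. Every treated library lay above every 0 h library of its line. Summed over a group and scaled to library size, the ratio over 0 h was 26.9 at 2 h and 39.4 at 4 h in HCT116 (exact binomial 95% intervals 7.08 to 228 and 10.6 to 332) and 9.08 and 29 in LS180 (2.81 to 46.6 and 9.58 to 144). The edgeR adjusted p was 0.00187 and 0.000155 at 2 and 4 h in HCT116 and 0.0247 and 9.55e-05 in LS180, and the LS180 2 h call was lost without any one of its 0 h libraries (adjusted p = 0.0680, 0.0655 and 0.0683) or without 2 h library 1 (adjusted p = 0.285). MT-TV had 2, 3 and 4 counts in HCT116 at 0 h and 6, 17 and 11 at 4 h, a log2 fold change of 1.92 (SE 0.606, adjusted p = 0.0128), and was not called at 2 h in HCT116 or in LS180. MT-TE, a tRNA of the other orientation that lies next to MT-ND6, had 8, 9 and 2 counts in HCT116 at 0 h, 3, 5 and 6 at 2 h and 0, 0 and 2 at 4 h. LS180 had 2, 1 and 1 counts at 0 h, 7, 2 and 10 at 2 h and 3, 4 and 6 at 4 h. The HCT116 4 h group thus held 2 counts of MT-TE against 19 at 0 h, with libraries that overlapped, and the LS180 4 h group 13 against 4, with none that did. Below the filter, MT-TE was tested in 1 alternative alone, the edgeR fit with no filter, where it was called lower in HCT116 at 4 h (-3.01, adjusted p = 0.00553) and higher in LS180 at 2 h (2.16, adjusted p = 0.0317), with a line difference of the 4 h change of -4.88 (adjusted p = 0.00305). There it was also called higher in HCT116 than in LS180 at 0 h (2.20, adjusted p = 0.0160). Reads that begin in MT-TF or MT-TV and run on into MT-RNR1 cannot be told apart from reads of the tRNAs alone in gene counts.

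Nuclear genes of oxidative phosphorylation were also called higher, and these calls largely depended on scaling, as did those of all genes. At 4 h 36 of 37 nuclear complex I genes were higher and 1 lower in each line, as were 8 of 9 complex III genes (0 lower), 12 of 12 complex IV genes and 15 of 15 complex V genes in each line. The background was 26.2% higher and 23.7% lower in HCT116 and 26.6% and 31.1% in LS180. Their median log2 fold changes of 0.41 to 0.45 in HCT116 and 0.50 to 0.60 in LS180 became 0.01 to 0.05 in HCT116 and -0.06 to 0.02 in LS180 with scaling to ribosomal protein genes. That scaling moved the median of all genes from 0.02 to -0.34 in HCT116 and from 0.00 to -0.54 in LS180. The medians of these complexes thus stayed above it. Mitochondrial ribosomal protein genes were higher in 44 and lower in 10 of 76 in HCT116, and higher in 41 and lower in 17 of 76 in LS180. With scaling to ribosomal protein genes 0 were higher in either line and 41 and 59 were lower. Of all 17256 genes, 111 were then higher and 7339 lower in HCT116, and 123 and 10735 in LS180.

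Regulators were among the genes that fell. Of 13 biogenesis regulators 8 were lower and 1 higher in HCT116 at 4 h, and 11 were lower and 1 higher in LS180. MYC averaged 470, 36.7 and 14.3 CPM at 0, 2 and 4 h in HCT116 and 249, 8.10 and 4.33 CPM in LS180, and NRF1, a transcription factor for nuclear genes of the respiratory chain, averaged 19.6, 8.19 and 4.00 CPM in HCT116 and 14.3, 3.40 and 2.21 CPM in LS180. Among 12 genes of mitochondrial transcription 2 were higher and 5 lower in HCT116 at 4 h and 2 were higher and 8 lower in LS180. TEFM averaged 12.7, 10.5 and 7.13 CPM at 0, 2 and 4 h in HCT116 (4 h change -0.83, edgeR adjusted p = 7.05e-09) and 11.1, 8.38 and 4.96 CPM in LS180 (-1.17, adjusted p = 5.07e-11). TFAM, which packages mitochondrial DNA and starts its transcription, averaged 95.2, 105 and 112 CPM in HCT116 (0.24, adjusted p = 0.00204) and 86.2, 97.7 and 116 CPM in LS180 (0.42, adjusted p = 4.12e-06). Of 40 genes of RNA processing and stability 14 were higher and 13 lower in HCT116 and 11 and 16 in LS180; PNPT1, the nuclease of the RNA degradosome, was higher in HCT116 (0.46, adjusted p = 1.92e-05) and LS180 (0.51, adjusted p = 3.23e-06). Of 23 genes of mitochondrial DNA maintenance 13 were higher and 3 lower in HCT116 and 12 and 4 in LS180, among the higher the succinate ligase subunit SUCLA2 (0.44 in HCT116, adjusted p = 3.52e-05, and 0.54 in LS180, adjusted p = 1.54e-06). These 4 h counts stand beside 26.2% higher and 23.7% lower of all genes in HCT116, and 26.6% and 31.1% in LS180. With scaling to ribosomal protein genes 0 of the 12, 40, 23 and 13 genes of these lists were higher at 4 h in either line. Of all 17256 genes, only 111 in HCT116 and 123 in LS180 were higher with that scaling. The lack of higher genes in these short lists therefore does not set them apart from all genes.

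The response of a few members differed between the lines by a test of the difference itself. For the 2 h change 2 of 13 mRNAs were called more positive in HCT116 and 0 more negative, against 5.24% and 0.394% of 17256 genes and 5.64% in either direction. For the 4 h change 1 was more positive and 2 more negative, against 12.3% and 1.33%. MT-CO3 rose further in HCT116, with a difference of 0.59 at 2 h (SE 0.144, edgeR adjusted p = 0.0160) and of 0.62 at 4 h (SE 0.144, adjusted p = 0.00546). In ratios that scaling does not affect, HCT116 had 0.753, 0.761 and 0.721 MT-CO3 counts per MT-CO1 count at 0 h, 0.921, 0.993 and 0.996 at 2 h and 0.873, 0.993 and 1.04 at 4 h. LS180 had 0.511, 0.527 and 0.530 at 0 h, 0.442, 0.476 and 0.477 at 2 h and 0.393, 0.351 and 0.354 at 4 h. The ratio was higher after treatment in HCT116 and lower in LS180, with no overlap with 0 h in either line.

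The 2 h difference of MT-CO3 was called in 6 of the 12 fits that left out 1 library, and not without HCT116 0 h library 3 (adjusted p = 0.0504), HCT116 2 h library 2 or 3 (0.102 and 0.167), LS180 0 h library 1 (0.0572) or LS180 2 h library 1 or 2 (0.0503 and 0.151). The 4 h difference was lost without HCT116 4 h library 1 (0.36, adjusted p = 0.0831) and without the LS180 4 h libraries numbered 2 and 3 (0.36, adjusted p = 0.285). MT-ATP8 fell further in HCT116 at 4 h, with a difference of -0.97 (SE 0.263, edgeR adjusted p = 0.0174). Its call held without each single library and without the HCT116 libraries numbered 1 (-1.29, adjusted p = 0.00172). Without the LS180 4 h libraries numbered 2 and 3, which leaves that group with a single library, the difference of MT-ATP8 was -1.29. MT-CYB rose less in HCT116 at 4 h, with a difference of -0.65 (SE 0.201, adjusted p = 0.0358). That call was lost without any of 6 single libraries, LS180 0 h library 2 or 3, LS180 4 h library 2 or 3 and HCT116 0 h library 1 or 2, with adjusted p from 0.0779 to 0.135, and without the LS180 4 h libraries numbered 2 and 3 (-0.40, adjusted p = 0.263). MT-ND3 differed at 2 h by 0.65 (SE 0.154, adjusted p = 0.0137), a call lost without LS180 2 h library 2 or HCT116 2 h library 2 or 3 (adjusted p = 0.188, 0.212 and 0.225). Over all alternatives, the 2 h difference was called in 12 of 22 for MT-CO3 and 15 of 22 for MT-ND3, and the 4 h difference in 21 of 23 for MT-CO3, 20 of 23 for MT-ATP8 and 12 of 23 for MT-CYB. The 4 h difference of MT-CO2, not called here, was called negative in 10 of 23. With scaling to ribosomal protein genes the median of all genes moved from 0.06 to 0.21 for the 4 h difference; the mRNAs then split 1 and 0, as they did with total library sizes and the length offset, and 1 and 4 with RLE size factors. Without HCT116 4 h library 1, which lay above the other HCT116 4 h libraries for 12 of the 13 mRNAs and both rRNAs, 7 mRNAs were called more negative at 4 h and 0 more positive.

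**Figure D4:**
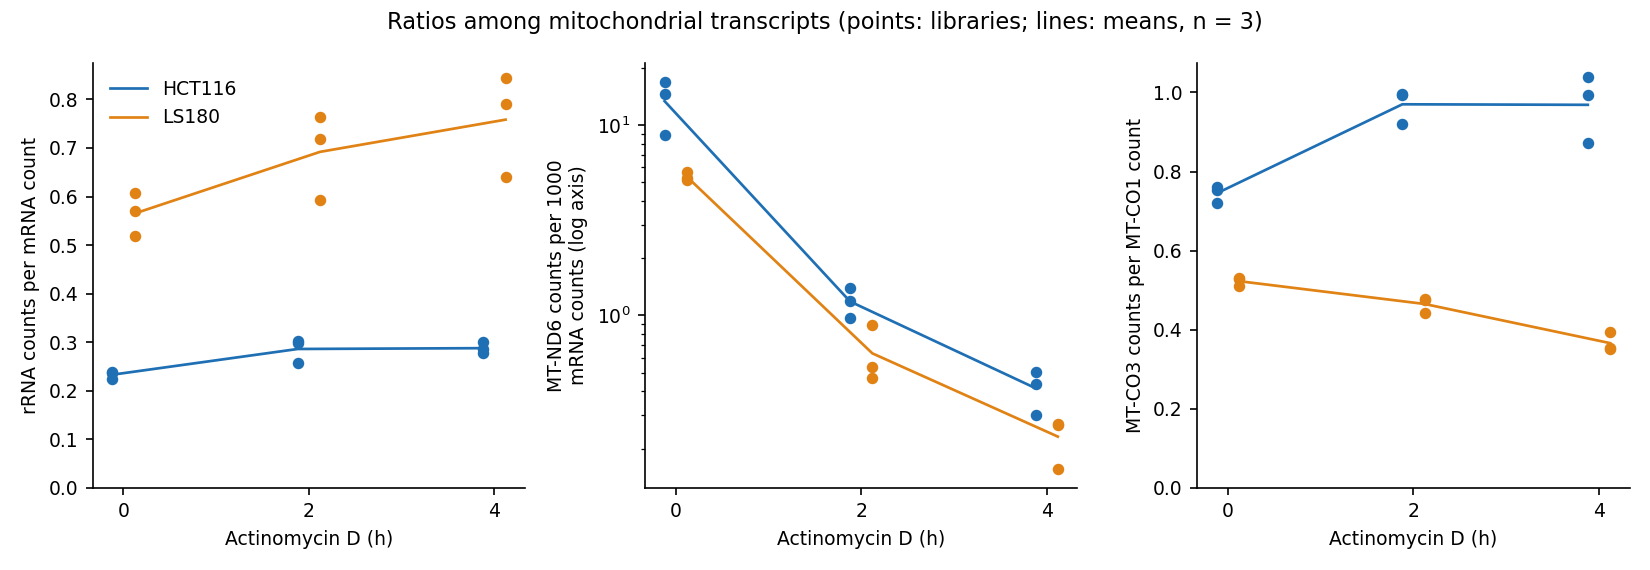
Ratios of expected counts within each library at 0, 2 and 4 h of actinomycin D in HCT116 (blue) and LS180 (orange): rRNA per mRNA counts, MT-ND6 per 1000 mitochondrial mRNA counts (log axis) and MT-CO3 per MT-CO1 counts. MT-ND6 lies above 5 per 1000 in every 0 h library and below 1 in every 4 h library, and MT-CO3 per MT-CO1 reaches 0.873 to 1.04 in HCT116 and 0.351 to 0.393 in LS180 at 4 h.

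Before treatment, HCT116 had more of nearly every mitochondrial mRNA than LS180. Of 13 mRNAs 12 were higher in HCT116 and 0 lower (edgeR adjusted p under 0.05), where 33.7% of 17256 genes were higher and 42.6% lower, and the median log2 fold change was 1.10. The count was the same, 12 higher and 0 lower, without the HCT116 libraries numbered 1, and no mRNA changed direction with any scaling, although scaling to ribosomal protein genes moved the median of all genes from -0.10 to 0.17 and their split from 5819 higher and 7343 lower to 7345 and 5336. MT-ND6 differed most, with 7.63, 12.9 and 10.3 CPM in HCT116 and 2.88, 2.39 and 2.71 CPM in LS180 (1.95, SE 0.181, adjusted p = 1.22e-08). MT-ND1 had 13.1, 16.2 and 14.8 CPM in HCT116 and 5.43, 4.39 and 5.17 CPM in LS180 (1.55, SE 0.163, adjusted p = 6.94e-08), and MT-ND2 had 18.3, 22.1 and 19.3 CPM in HCT116 and 8, 5.92 and 6.55 CPM in LS180 (1.54, SE 0.154, adjusted p = 3.50e-08). The groups did not overlap for any of these. The other complex I mRNAs followed, with 1.44 for MT-ND5, 0.89 for MT-ND3, 0.74 for MT-ND4L and 0.69 for MT-ND4.

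The mRNAs of the other complexes differed by unequal amounts. MT-ATP8 stood at 1.32 and MT-ATP6 at 0.99, MT-CYB at 1.10, MT-CO2 at 1.21 and MT-CO3 at 0.75, with the largest adjusted p of these at 2.45e-06. MT-CO1 was the exception, with 318, 255 and 243 CPM in HCT116 and 259, 214 and 223 CPM in LS180 and a log2 fold change of 0.23 that did not pass the test (SE 0.123, adjusted p = 0.0986). It passed in 8 of 16 alternatives: RLE size factors (0.35, adjusted p = 0.0122), DESeq2 (adjusted p = 0.00604), no filter (adjusted p = 1.14e-07), the 1 CPM filter (adjusted p = 0.00627), the replicate block (adjusted p = 0.0272), only the groups compared (adjusted p = 0.0158), scaling to ribosomal protein genes (0.50, adjusted p = 0.00304) and without LS180 0 h library 1 (0.32, adjusted p = 0.0461). MT-CO1 held different places in the mRNA pool: it made up 34.7% of mitochondrial mRNA counts in HCT116 and 46.7% in LS180 at 0 h.

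The 2 rRNAs went in opposite directions. MT-RNR2 was lower, with 189, 169 and 149 CPM in HCT116 against 273, 270 and 265 CPM in LS180, a log2 fold change of -0.67 (SE 0.14, edgeR adjusted p = 0.000281) that kept its sign and call in all 16 alternatives. MT-RNR1 was higher, with 16.6, 13.6 and 10.3 CPM in HCT116 against 11.3, 10.1 and 8.62 CPM in LS180 (0.44, SE 0.165, adjusted p = 0.0220). The MT-RNR1 groups overlapped, and the call was lost without HCT116 0 h library 1 (0.26, adjusted p = 0.166), LS180 0 h library 3 (0.34, adjusted p = 0.103) or the HCT116 libraries numbered 1 (0.27, adjusted p = 0.132). There were 11.4, 12.4 and 14.5 MT-RNR2 counts per MT-RNR1 count in HCT116 and 24.2, 26.7 and 30.7 in LS180. rRNA per mRNA counts were 0.238, 0.237 and 0.224 in HCT116 and 0.518, 0.607 and 0.570 in LS180. Here too a difference in rRNA and a difference in any rRNA removal before sequencing cannot be told apart. The difference between the lines did not pass the test for either tRNA above the filter (adjusted p = 0.763 for MT-TF and 0.929 for MT-TV), where each line held 2 or 3 counts of MT-TF and 9 of MT-TV.

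**Figure D5:**
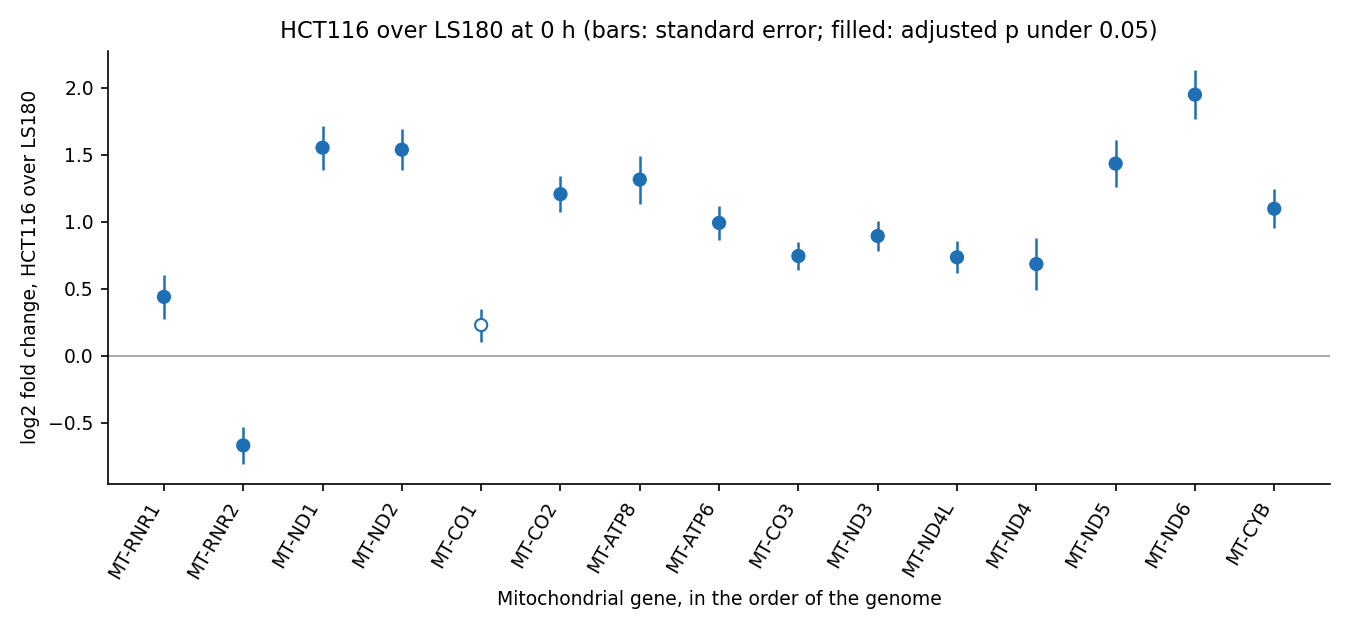
log2 fold change of HCT116 over LS180 at 0 h for each mitochondrial gene, in genome order; bars are standard errors and filled points had an edgeR adjusted p under 0.05. The mRNAs lie between 0.23 (MT-CO1) and 1.95 (MT-ND6), and MT-RNR2 lies at -0.67.

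Nuclear subunits of the same complexes were mostly lower in HCT116. Of 37 nuclear complex I genes 5 were higher and 25 lower in HCT116 (median -0.32), and the counts were 0 and 4 of 4 for complex II, 2 and 6 of 9 for complex III, 1 and 10 of 12 for complex IV and 2 and 9 of 15 for complex V, against 33.7% and 42.6% of all genes. With scaling to ribosomal protein genes, which themselves were lower in HCT116 for 55 of 80, the complex I genes split 10 and 9 and the complex V genes 4 and 2, with a median of 0.08 for complex V. That scaling moved the median of all genes from -0.10 to 0.17. Among genes of mitochondrial RNA processing and stability, 12 of 40 were higher and 17 lower. LRPPRC averaged 387 CPM in HCT116 and 188 CPM in LS180 (1.04, adjusted p = 1.15e-13), and FASTK averaged 26.4 CPM in HCT116 and 54.1 CPM in LS180 (-1.03, adjusted p = 3.55e-11). Of 12 genes of mitochondrial transcription 7 were higher and 3 lower, led by MTERFD1, a member of the mitochondrial termination factor family, at 36.7 CPM in HCT116 and 17.9 CPM in LS180 (1.03, adjusted p = 2.46e-11). TFB2M, the factor that melts the promoter, averaged 31.3 CPM in HCT116 and 48.6 CPM in LS180 (-0.63, adjusted p = 8.83e-07). Of 23 genes of mitochondrial DNA maintenance 8 were higher and 10 lower, and POLG2, the accessory subunit of the mitochondrial DNA polymerase, averaged 13.7 CPM in HCT116 and 4.42 CPM in LS180 (1.64, adjusted p = 3.87e-11). Of 13 biogenesis regulators 4 were higher and 4 lower. PPARGC1A, a coactivator of mitochondrial biogenesis, had 0 counts in HCT116 and 1096 in LS180 at 0 h, which is at least 389-fold lower when 3 counts summed over the HCT116 libraries are taken as the floor. Of 76 mitochondrial ribosomal protein genes 26 were higher and 25 lower. LS180 and HCT116 are each a single cell line, so these differences are between these cultures and their libraries.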

How the data were processed

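Mitochondrial genes were taken by symbol from the gene tables of 4 siRNA and 18 actinomycin D libraries. The submitters' processing notes name cutadapt, STAR 2.7 and RSEM 1.3.1, and the builds hg38 (siRNA tables) and hg19 (actinomycin D tables). The sources used here do not give the annotation release, strand setting or read filters. The deposited tables held expected counts, which divide reads that match several genes, TPM, and the authors' effective length (an other measure, in bases).

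Expected counts were rounded and fitted per experiment with edgeR 4.0.16 under R 4.3.3 (TMM, filterByExpr, glmQLFit, glmQLFTest, two-sided, Benjamini-Hochberg over 14073 and 17256 genes, threshold 0.05). The fit was also run on simulated counts in which all genes had the same relative spread and no library stood apart. That run therefore does not show the error rate in these libraries. The 8 comparisons included line differences of the change. CPM used TMM-scaled library sizes. Members, lists and tests were chosen with earlier results of these data known. Named were all mRNAs and rRNAs, the 5 tRNAs of highest CPM, up to 3 list genes per direction by adjusted p, and some of the nuclear pseudogenes closest to members. Replicate numbers were not taken to pair libraries. Where a group had no count the fold used a floor of 3 counts, and 1 to 3 counts gave a ratio with an exact binomial interval. Nuclear copies were sought with BLAST 2.17.0 in GENCODE 29 transcripts, with 90% of a member aligned. Alternatives were RLE size factors, total library sizes, ribosomal protein scaling, DESeq2 1.42.0, 2 count filters, effective length offset, a replicate block, only the groups compared, single libraries left out and, chosen after seeing the data, fits without the libraries that stood apart. Plots used matplotlib 3.10.9.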

Additional observations from a re-analysis of the deposited data

Results flagged for a closer look

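In 5 results the change of a member with actinomycin D differed between HCT116 and LS180 by edgeR's test of the difference itself (HCT116 minus LS180, log2 scale). MT-CO3 accounts for 2 of them, at 2 h and at 4 h. At 2 h the difference was 0.65 for MT-ND3 and 0.59 for MT-CO3. At 4 h it was 0.62 for MT-CO3, -0.65 for MT-CYB and -0.97 for MT-ATP8. The adjusted p was 0.0137 and 0.0160 at 2 h and 0.00546, 0.0358 and 0.0174 at 4 h. Of these, MT-ATP8 at 4 h kept its call in each fit without 1 library, and the other 4 lost theirs in at least 1. With scaling to ribosomal protein genes the call was lost for MT-ND3 (0.66, adjusted p = 0.203), MT-CO3 at 2 h (0.60, adjusted p = 0.129), MT-CYB (-0.47, adjusted p = 0.0895) and MT-ATP8 (-0.82, adjusted p = 0.0902). MT-CO3 at 4 h kept its call under that scaling.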

How the results depend on the processing

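The rises of MT-RNR1 and MT-RNR2 after siSTAU1 and after 2 and 4 h of actinomycin D, and the falls of MT-ND6 after actinomycin D in both lines, kept their direction and call under every alternative run. None of these alternatives covered a difference in rRNA removal between the total RNA libraries. Depth limits the tRNAs, which rest on few counts, and the siRNA comparison rests on 2 libraries a group, so leaving out 1 leaves a group with a single library that is assumed to vary like the others. Where a value below changed with a setting, the cause was not tested.

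With scaling to ribosomal protein genes, the mRNAs called higher or lower numbered 0 and 8 after siSTAU1, 3 were higher at each time in HCT116, 2 were higher in LS180 at 2 h and 6 were lower in LS180 at 4 h. RLE size factors left 2 lower in LS180 at 2 h and 1 at 4 h, where the filter of 1 CPM also left 1. After siSTAU1, 1 was higher with no filter, with the length offset and with total library sizes, and DESeq2 called 0 lower. For the 2 h line difference 0 were more positive with RLE, the 1 CPM filter, total library sizes and ribosomal protein scaling, and 1 was more negative with no filter. For the 4 h line difference 4 were more negative with RLE, DESeq2 and the 1 CPM filter, 7 with no filter, 0 with the offset, total library sizes and ribosomal protein scaling, 1 with only the groups compared and 5 without the HCT116 libraries numbered 1. Without the LS180 4 h libraries numbered 2 and 3, 0 were more positive and 1 more negative.

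Signs turned under ribosomal protein scaling for MT-ND2 (-0.075) and MT-CO3 (-0.016) after siSTAU1, for MT-CO3 (-0.041) and MT-ND4L (-0.36) in LS180 at 4 h, for MT-CO2 (-0.067) and MT-ND4L (-0.13) in HCT116 at 4 h, and for MT-ND1 (0.051) and MT-RNR1 (0.054) in the 4 h line difference. MT-ND4L was at -0.0076 in LS180 at 4 h with total library sizes. With RLE, DESeq2, no filter and the 1 CPM filter, in that order, MT-ND4L in LS180 at 2 h was 0.051, 0.051, 0.060 and 0.053, and MT-ATP8 in LS180 at 4 h was 0.11, 0.11, 0.10 and 0.13. In the 2 h line difference the same settings gave -0.041, -0.042, -0.089 and -0.091 for MT-ND5 and -0.049, -0.049, -0.098 and -0.099 for MT-CO1, and in the 4 h line difference -0.023, -0.024, -0.085 and -0.12 for MT-ND4L. With no filter and the 1 CPM filter the 2 h difference was -0.038 and -0.039 for MT-ND4 and -0.0044 and -0.0062 for MT-RNR2, and with the 1 CPM filter the 4 h difference of MT-ND3 was -0.010. Without the HCT116 libraries numbered 1, MT-TF was 0.024 between lines at 0 h and -0.64 in the 4 h line difference, where MT-ND4L was -0.062. In HCT116 at 2 h that edgeR fit called MT-CO2 higher (0.30, adjusted p = 0.00960) and MT-ND1 lower (-0.49, adjusted p = 0.0231). The MT-ND5 call was lost there (0.56, adjusted p = 0.0521). The 2 h line difference of MT-ND4L was called (0.62, adjusted p = 0.00825). In the 4 h line difference MT-CO2 (-0.71), MT-ATP6 (-0.65) and MT-CO1 (-0.32) were called more negative (adjusted p = 0.000164, 0.00580 and 0.0395). Without the LS180 4 h libraries numbered 2 and 3, MT-ATP8 was 0.28 in LS180 at 4 h, and the 4 h line difference was -0.0545 for MT-ND3 and 0.027 for MT-RNR1.

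Leaving out 1 library at a time gave 1 to 3 mRNAs higher and 0 to 8 lower after siSTAU1, 5 to 8 higher in HCT116 at 2 h, and 2 to 4 lower at 2 h and 1 to 3 lower at 4 h in LS180. The line difference had 0 to 2 more positive at 2 h, and 0 to 1 more positive and 1 to 7 more negative at 4 h. Values that changed sign ranged, after siSTAU1, from -0.18 to 0.035 for MT-CYB, -0.36 to 0.038 for MT-ND4, -0.14 to 0.13 for MT-ND1, -0.28 to 0.030 for MT-ATP6 and -0.14 to 0.065 for MT-ND4L. In LS180 MT-ND4L ranged from -0.11 to 0.044 at 2 h and MT-ATP8 from -0.090 to 0.045 at 4 h, and between lines at 0 h MT-TF ranged from -3.19 to 0.022. The 2 h line difference ranged from -0.55 to 0.097 for MT-ND6, -0.20 to 0.18 for MT-ND5, -0.11 to 0.18 for MT-CO1, -0.039 to 0.27 for MT-ND4, -0.25 to 0.026 for MT-ATP6 and -0.037 to 0.24 for MT-RNR2. The 4 h line difference ranged from -0.069 to 0.23 for MT-ND3, -0.48 to 0.15 for MT-ND1, -0.28 to 2.93 for MT-TF, -0.43 to 0.053 for MT-RNR1 and -0.27 to 0.18 for MT-ND4L.

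As a share of TPM, the mRNAs took 2.18% after siSTAU1 and 2.39% after siCTRL, and the rRNAs 0.491% after siCTRL. At 0, 2 and 4 h the TPM share of the mRNAs was 0.0617, 0.0862 and 0.0867% in HCT116 and 0.0335, 0.0381 and 0.0387% in LS180, and that of the rRNAs 0.0059, 0.011 and 0.0121% in HCT116 and 0.00839, 0.0138 and 0.0159% in LS180. Without short noncoding RNA in the total, the mRNAs took 0.102 and 0.152% of counts in HCT116 at 0 and 2 h and 0.0634, 0.0849 and 0.0973% in LS180 at 0, 2 and 4 h, and the rRNAs 0.0239 and 0.0434% in HCT116 and 0.0356, 0.0588 and 0.0736% in LS180.

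By the correlation of deviations from the group means, the replicate numbers were not taken to pair the libraries: same-numbered siRNA libraries correlated at -0.056, and same-numbered HCT116 libraries at 0.085 to 0.325, all positive but not all above 0.1, and HCT116 0 h library 2 correlated best with a library of another number. With the replicate number as a block no count of calls moved by over 1.5 times, and 6 values passed the test that had not: MT-CO2 after siSTAU1 (-0.28, adjusted p = 0.0242), in HCT116 at 2 h (0.33, adjusted p = 0.0104) and in the 4 h line difference (-0.54, adjusted p = 0.00938), MT-ND4L in HCT116 at 4 h (0.26, adjusted p = 0.0323) and in the 2 h line difference (0.57, adjusted p = 0.0222), and MT-CO1 between lines at 0 h (0.23, adjusted p = 0.0272).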
